A study of Mus musculus with 2 samples.

Results

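The genes described are regulators of programmed cell death in the ovary: members of the BCL2 family, caspases, the inhibitors that hold caspases in check, death receptors and p53. A gene was included when a probe set of the array carried its symbol alone, and it was read from its probe set of highest mean signal on the log2 scale. Of 36 listed genes, 34 had such a probe set, among 18193 genes in all, and they were covered by 86 probe sets. Bax and Trp53 were not analysed here. Of the 34 genes, 27 reached the floor for a measurable signal on at least 1 array, 26 of them on both arrays, and 7 stayed under it on both. For each array the floor is the median over its non-control probe sets, 37.95 on the knockout and 36.2 on the wild-type array.

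RNA was compared between ovaries of progesterone receptor (PR) knockout mice and of wild-type mice, with 1 Affymetrix GeneChip mouse array per genotype. Both were C57BL/6 mice aged 24 to 28 days injected with PMSG (pregnant mare serum gonadotropin, 5 IU), which makes follicles grow. An injection of hCG (human chorionic gonadotropin, 5 IU) followed at 48 h, which stands in for the ovulatory surge of luteinizing hormone, and the ovaries were collected 11 h later. The knockout allele, the part of the gene it disrupts and the number of mice behind each RNA sample are not given in the sources used here. There are no replicates, so no difference was tested, and each difference below is a single knockout signal set against a single wild-type signal. The knockout is not limited to 1 cell type as far as the labels say, and whole ovaries were used, so fewer cells of a type and less RNA per cell cannot be told apart.

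Apoptosis removes most ovarian follicles before they ovulate, and granulosa cells that have received the ovulatory surge become less prone to it. In the mitochondrial route, the pore-forming proteins BAX and BAK1 open the outer mitochondrial membrane unless anti-apoptotic relatives such as MCL1 and BCL-XL restrain them. BH3-only proteins sense stress or withdrawal of survival factors and neutralise the anti-apoptotic relatives. Released cytochrome c assembles APAF1 and caspase-9 into the apoptosome, while death receptors at the cell surface act through FADD and caspase-8.

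The targeted gene Pgr had 3 probe sets and could not serve as a check of the labels. The brightest gave 42.8 in the knockout and 36.5 in the wild type, close to the floors, and the other two were under them. Of the ovarian markers with a probe set, 10 of 10 granulosa, 6 of 6 theca and 11 of 12 oocyte genes were above the floor on at least 1 array. Among these, the theca gene Gli1 and the oocyte gene Figla reached it on the knockout array alone. All 5 oviduct epithelium markers with a probe set were under the floor on both arrays. The signal ratio between the 3′ and 5′ control probe sets, a sign of RNA integrity, was 1.30 in the knockout and 1.29 in the wild type for actin, and 0.83 and 0.87 in the same order for Gapdh.

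As a group, the apoptosis genes differed between the genotypes about as much as all measured genes did, and Tnfrsf12a had the largest difference. It was the 1 member of 27 measured that was at least 2-fold apart, and it was lower in the knockout ovary. That is 3.70% of the measured members, against 2.87% of all 11316 measured genes past 2-fold in either direction and 1.72% past 2-fold on the low side. At 1.5-fold, 1 member was lower, where 4.75% of all measured genes were, and 1 member, Bbc3, was higher, where 6.54% were. Bbc3 counted as measured through the knockout array alone, so the floor fixed its direction in advance, here and in the counts that follow. The higher and the lower member together are 7.41% of the measured members, against 11.3% of all measured genes. The members' share was thus near the background at 2-fold and below it at 1.5-fold, on counts too small to set the members apart from other genes. Counting any size, 13 members were higher and 14 lower, while 57.7% of all measured genes were higher and 42.2% lower. Expressed as knockout minus wild type, the log2 difference had a median of -0.01 over the members and 0.06 over all measured genes. The members' quartiles lay at -0.20 and 0.24, and those of all measured genes at -0.14 and 0.27.

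The one error estimate the arrays allow comes from genes read by several probe sets. Over 4771 genes with at least 2 probe sets above the floor on both arrays, the SD of the log2 difference within a gene was 0.25, or 1.19-fold, which leaves out the spread between animals. By that yardstick 15 of the 27 measured members differed by less than 1 SD, while 58.3% of all measured genes did. Another 7 members, Bbc3 among them, were higher in the knockout by more than 1 SD and 5 lower. The shares of all measured genes were 26.2% higher and 15.5% lower. Among genes of like signal, 25 members lay between the 5th and the 95th percentile of the difference. Most measured genes lie there by definition, so this count does not mark the members as unusually stable. The 2 outside were Tnfrsf12a and, by less than the second decimal of the log2 scale, Bcl2l1, both on the low side.

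**Figure D1:**
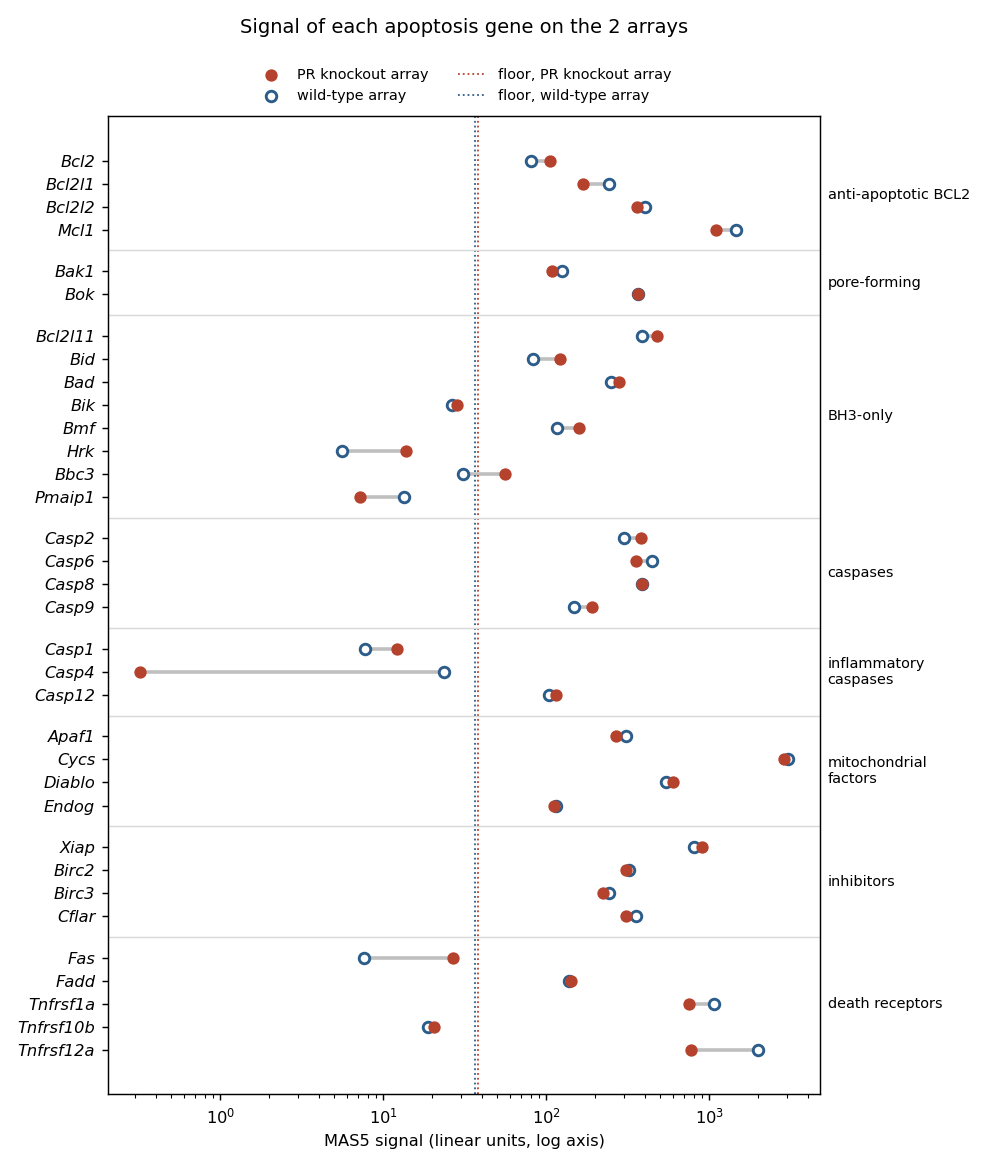
MAS5 signal (linear units, log axis) of the 34 genes on the PR knockout array (filled circles) and the wild-type array (open circles), grouped by role, with each array's floor as a dotted line. Most pairs lie close together; Tnfrsf12a, at 771 in the knockout and 1984 in the wild type, is the widest gap above the floors.

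Tnfrsf12a encodes the receptor for the cytokine TWEAK, also called Fn14, a small membrane receptor known to be induced by growth factors and tissue injury. Its signal was 771 in the knockout ovary and 1984 in the wild-type ovary, which is 2.58-fold lower in the knockout. The other probe set of the gene gave 732 in the knockout and 1643 in the wild type, a log2 difference of -1.17 beside -1.36 for the brighter. Both probe sets therefore placed the gene past 2-fold, far beyond the spread between probe sets. They read the same RNA samples, so that spread does not cover differences between animals or arrays. Counted from the most negative difference, Tnfrsf12a stood at position 100 of the 11316 measured genes. Genes in the same signal bin, the highest of 10, had a 5th percentile of -0.58. Tnfsf12, the gene of its ligand TWEAK, was not analysed here.

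The promoter window of Tnfrsf12a is shown because this member had the largest difference, with those of Bbc3, the largest difference towards higher signal, and Mcl1, lower in every one of its probe sets. Each window runs from 250 bases before to 50 bases after the RefSeq transcription start in build GRCm38.p6, 5′ to 3′ on the strand of the gene. Capitals mark exact matches on either strand to the EGR-type element GCGGGGGCG or to TGACG, the core of the cAMP response element.
Tnfrsf12a, chr17:23677400-23677699, minus strand: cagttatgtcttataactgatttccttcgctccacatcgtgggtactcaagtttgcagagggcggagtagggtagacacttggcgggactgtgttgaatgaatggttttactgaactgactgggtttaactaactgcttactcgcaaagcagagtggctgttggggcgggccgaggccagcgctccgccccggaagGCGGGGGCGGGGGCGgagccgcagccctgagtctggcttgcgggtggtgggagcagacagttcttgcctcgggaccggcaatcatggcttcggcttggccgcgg
Bbc3, chr7:16309333-16309632, plus strand, 1 of 3 windows of the gene: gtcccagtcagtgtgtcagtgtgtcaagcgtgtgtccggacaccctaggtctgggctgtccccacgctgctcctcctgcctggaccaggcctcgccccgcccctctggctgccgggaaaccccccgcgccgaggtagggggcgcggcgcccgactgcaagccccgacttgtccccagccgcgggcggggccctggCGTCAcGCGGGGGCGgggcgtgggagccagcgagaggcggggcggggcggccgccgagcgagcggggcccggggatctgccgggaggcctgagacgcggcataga
Mcl1, chr3:95658471-95658770, plus strand: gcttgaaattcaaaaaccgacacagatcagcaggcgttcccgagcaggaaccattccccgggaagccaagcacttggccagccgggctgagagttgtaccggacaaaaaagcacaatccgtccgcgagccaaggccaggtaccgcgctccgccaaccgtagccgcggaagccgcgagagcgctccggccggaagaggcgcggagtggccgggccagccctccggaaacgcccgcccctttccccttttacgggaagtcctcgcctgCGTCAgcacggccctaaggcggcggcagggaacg

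The Tnfrsf12a window holds a pair of overlapping matches to GCGGGGGCG, whose first bases lie 54 and 48 bases upstream of the start. Only the first window of Bbc3 holds a match to it, 49 bases upstream, next to a TGACG core on the other strand 55 bases upstream. The Mcl1 window holds 1 TGACG core, on the other strand, starting at base 17 of the transcript. Over the 45 windows of the 33 members with a promoter entry, 3 windows or 6.67% hold GCGGGGGCG, those of Tnfrsf12a, Bbc3 and Bcl2l11, against 2.91% of all 32851 windows. TGACG was in 26.7% of the members' windows and in 20.8% of all windows, and TGTTCT, the core of the element bound by progesterone and glucocorticoid receptors, in 11.1% and 19.0% in the same order. The AP-1 sites TGACTCA and TGAGTCA were in 1 window of the members, that of Fas, or 2.22%, against 5.20% of all windows. These are letter matches in short windows and show no binding; GCGGGGGCG also overlaps the common GC box, and windows of 1 gene can overlap each other.

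The receptors listed in a group with Tnfrsf12a were lower by less, or were not measurable. Tnfrsf1a, the main receptor for tumour necrosis factor, had a signal of 751 in the knockout and 1065 in the wild type, 1.42-fold lower, from its single probe set. Fadd, the adaptor that joins death receptors to caspase-8, gave 141 in the knockout and 137 in the wild type, well inside the spread between probe sets, and its sign turned under each of the 3 rescalings. Fas, the receptor for Fas ligand, and Tnfrsf10b, the receptor for TRAIL, were under the floor on both arrays, at 26.6 and 20.4 in the knockout and 7.64 and 18.7 in the wild type. Of the 5 genes of this group, 3 were measured, 2 of them lower and 1 higher.

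The anti-apoptotic BCL2 genes split by member, and their probe sets sided with each other within each gene. Mcl1, which encodes a short-lived protein that sequesters BAK1 and BH3-only proteins, had a signal of 1101 in the knockout and 1459 in the wild type, 1.33-fold lower. All 6 of its probe sets were lower in the knockout, from -0.53 to -0.24 on the log2 scale. Bcl2l1, the gene of BCL-XL, gave 169 in the knockout and 242 in the wild type, 1.43-fold lower, with -0.50 on the log2 scale by its other measured probe set. Bcl2l2, the gene of BCL-W, was close to equal at 358 in the knockout and 402 in the wild type, with 3 measured probe sets from -0.39 to -0.06, all lower. Bcl2, the founding member of the family, went the other way at 106 in the knockout and 80.3 in the wild type, 1.32-fold higher. Its 4 measured probe sets were all higher, from 0.15 to 0.40 on the log2 scale. The direction of these 4 genes held under each of the 3 rescalings.

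**Figure D2:**
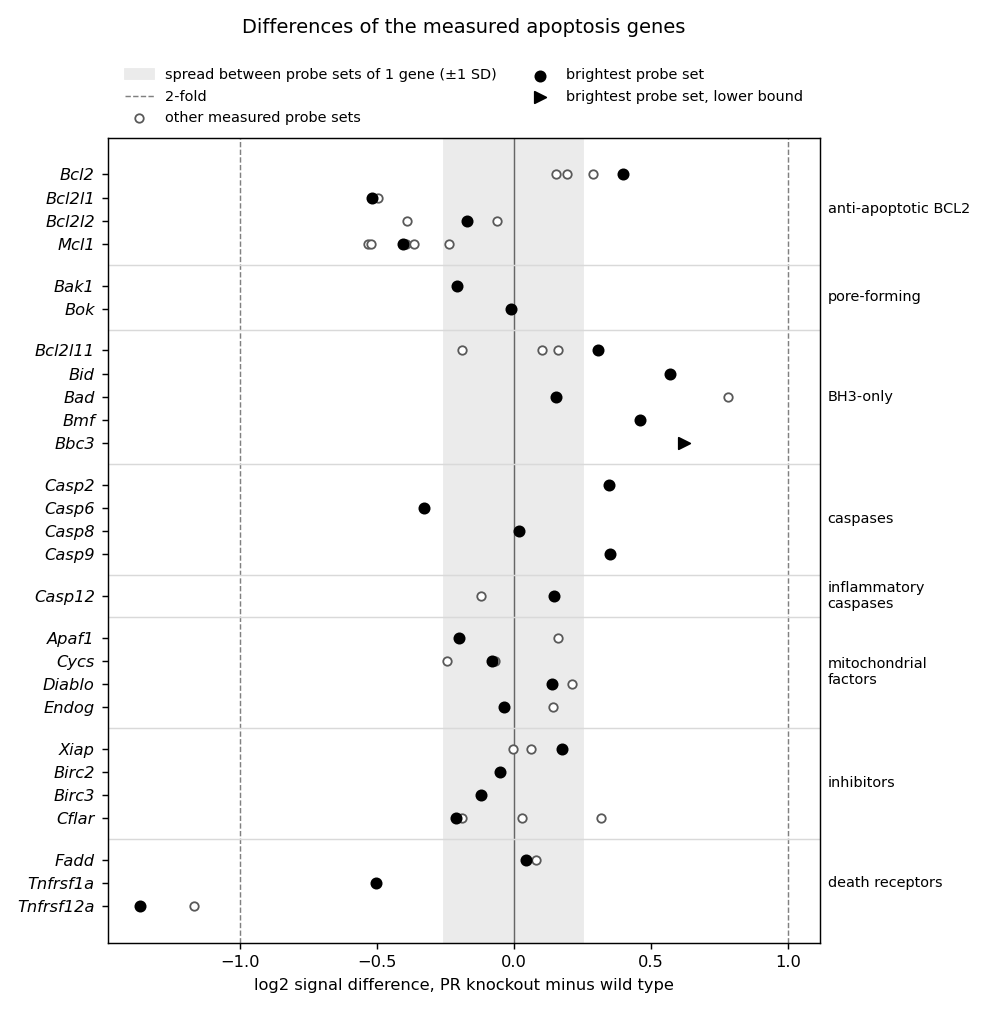
Log2 signal difference, PR knockout minus wild type, of the 27 measured genes by role: filled circles show the brightest probe set, the triangle a lower bound, open circles other measured probe sets, the grey band ±1 SD between probe sets of 1 gene (0.25) and dashed lines 2-fold. Tnfrsf12a lies past 2-fold with both probe sets, the measured BH3-only genes lie right of 0 with their brightest probe sets, and Mcl1 and Bcl2l1 lie left of 0 with all of theirs.

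BH3-only genes, whose products counter the anti-apoptotic proteins, were higher in the knockout in 5 of the 5 that could be measured, by small amounts. Bbc3 is among the 5 only through the knockout array, so the floor fixed its direction in advance. With a floor at the 70th percentile, which leaves out Bbc3 and Bid, 3 of 3 measured were higher. A higher signal in the knockout was also the more frequent direction over all measured genes, at 57.7%. With Bbc3 included, the median log2 difference of the 5 was 0.46. Each lay within the 5th to 95th percentile of genes of like signal, a range that holds most genes by definition. Bbc3, which encodes the p53-induced protein PUMA, gave 55.8 in the knockout and 30.9, under the floor, in the wild type. It was thus at least 1.54-fold higher, and it counted as measured through the knockout array alone. Bid, which links caspase-8 to the mitochondrion, had 122 in the knockout and 82.2 in the wild type, 1.48-fold higher by its 1 measured probe set.

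Bmf, a BH3-only protein tied to the cytoskeleton, gave 159 in the knockout and 115 in the wild type, 1.37-fold higher. Bcl2l11, the gene of BIM, gave 475 in the knockout and 384 in the wild type, 1.24-fold higher. The signs of its 4 measured probe sets were mixed, with 3 higher and 1 lower, from -0.19 to 0.31 on the log2 scale, and their mean of 0.10 was inside the spread between probe sets. Bad, whose product is switched off by survival-factor kinases, had 277 in the knockout and 249 in the wild type by its brighter probe set. The dimmer one gave 221 in the knockout and 129 in the wild type, a log2 difference of 0.78 beside 0.15, so the size of the Bad difference depends on the probe set. Bik, Hrk and Pmaip1, the gene of NOXA, were under the floor on both arrays. All 5 measured members stayed above 0 under each of the 3 rescalings, with Bad nearest to 0 at 0.07 on removal of the loess trend.

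Cell type markers measured on the same arrays moved in both directions, and the counts stand beside the 57.7% of all measured genes that were higher. Of 10 granulosa markers, 8 were higher in the knockout and 5 of them by at least 1.5-fold, where 6.54% of all measured genes were. The summed signal of the 10 was 18633 in the knockout and 16459 in the wild type. Theca markers were split, 3 higher and 3 lower, with summed signals of 29859 in the knockout and 31876 in the wild type. Oocyte markers were higher in 9 of 11 measured. Summed over all 12 with a probe set, their signals were 3014 in the knockout and 2715 in the wild type. Stroma and fibroblast markers were higher in 5 of 8, at 18807 in the knockout and 16735 in the wild type, with Tcf21 2.76-fold higher. Endothelial markers were higher in 6 of 9, at 2055 and 1822 in the same order, and smooth muscle markers were lower in 4 of 6, at 9974 and 10761. Gli1, Figla and the endothelial gene Vwf counted as measured through the knockout array alone, so the floor fixed their direction in advance. The part of these markers in the BH3-only differences was not tested.

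The pore-forming genes differed by less than the spread between probe sets. Bak1, whose product forms the mitochondrial pore, gave 108 in the knockout and 125 in the wild type. Bok, a relative that is abundant in reproductive tissue, gave 364 in the knockout and 367 in the wild type, practically the same signal.

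Among the caspases of the cell death cascade, 3 of 4 were higher in the knockout and none reached 1.5-fold. Casp9, the initiator in the apoptosome, had 189 in the knockout and 148 in the wild type, 1.28-fold higher. Casp2, an initiator that also acts in oocyte death, gave 383 in the knockout and 301 in the wild type, 1.27-fold higher. Both lay beyond the spread between probe sets, each on 1 measured probe set, but Casp9 came inside it, at 0.24 on the log2 scale, on removal of the loess trend. Casp6, an effector, ran the other way at 354 in the knockout and 444 in the wild type, 1.26-fold lower. Casp8, the initiator of the death receptor route, gave 389 in the knockout and 383 in the wild type, and its sign turned on median centring and on removal of the loess trend.

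Caspases of the inflammatory group were barely measurable. Casp1, which cleaves interleukin-1 beta, and Casp4, which senses bacterial lipopolysaccharide, were under the floor on both arrays, at 12.1 and 0.322 in the knockout and 7.69 and 23.6 in the wild type. Signals that low carry no order on MAS5 arrays. Casp12, tied to endoplasmic reticulum stress in the mouse, gave 114 in the knockout and 103 in the wild type, and its 2 probe sets differed in sign. Leukocytes are a known source of the inflammatory caspases, and their markers were measured for 11 of 15 genes, with 3 higher and 8 lower. The summed signal of all 15 was 1377 in the knockout and 1425 in the wild type. That sum includes Itgam, Aif1, Cd3e and Cd79a, which were under the floor on both arrays.

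Mitochondrial factors downstream of the pore were close to equal. Cycs, cytochrome c, gave 2875 in the knockout and 3037 in the wild type, and its 3 measured probe sets ran from -0.25 to -0.07 on the log2 scale, while its sign turned on quantile normalization. Apaf1, the scaffold of the apoptosome, gave 269 in the knockout and 309 in the wild type, with its other probe set at 0.16. Diablo, which displaces inhibitors from caspases, gave 594 in the knockout and 539 in the wild type. Endog, a mitochondrial nuclease, gave 112 in the knockout and 115 in the wild type. All 4 lay within 1 SD of the spread between probe sets.

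The caspase inhibitors and the caspase-8 regulator Cflar were likewise within that spread. Xiap, the direct inhibitor of caspases, had 902 in the knockout and 800 in the wild type, and its 3 measured probe sets ran from -0.00 to 0.17. Birc2, a ubiquitin ligase of receptor complexes, gave 310 in the knockout and 321 in the wild type, and its relative Birc3 gave 222 in the knockout and 241 in the wild type. Cflar, which encodes the caspase-8 decoy c-FLIP, gave 308 in the knockout and 357 in the wild type by its brightest probe set. Its 4 measured probe sets were split, 2 higher and 2 lower, from -0.21 to 0.32 on the log2 scale.

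Probe sets of 1 gene could be set beside each other. Of the 15 measured members with more than 1 measured probe set, 9 had all of them on the same side of 0. The same share was not computed over all measured genes, so this count is no support for the members as a set. The 9 were Bcl2, Bcl2l1, Bcl2l2, Mcl1, Bad, Cycs, Diablo, Fadd and Tnfrsf12a. The 6 with mixed signs were Bcl2l11, Casp12, Apaf1, Endog, Xiap and Cflar, each of which was within 1.24-fold by its brightest probe set.

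**Figure D3:**
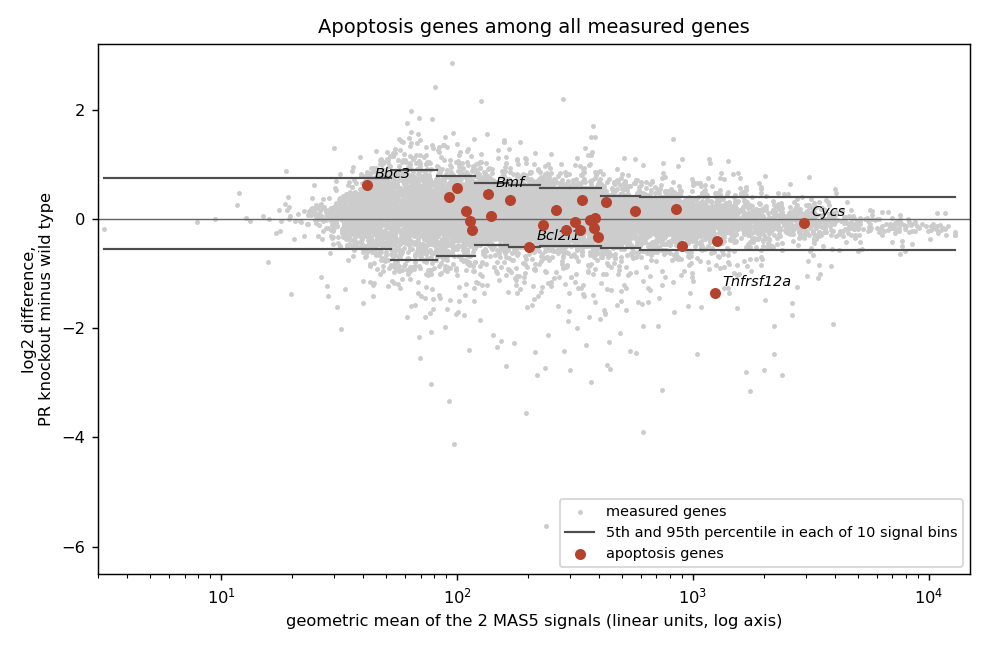
Log2 difference, PR knockout minus wild type, against the geometric mean of both signals (log axis) for the 11316 measured genes (grey), with the 5th and 95th percentile in each of 10 signal bins (lines) and the 27 apoptosis genes in red. Tnfrsf12a lies clearly below the lower line, Bcl2l1 on it, and the other apoptosis genes lie between the lines.

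Larger differences were seen in related genes outside the members, among them genes of NF-kB signalling. In a list of 14 genes of NF-kB feedback and NF-kB targets, 13 were measured, and 4 were at least 2-fold lower in the knockout with 0 past that size on the other side. Their median log2 difference was -0.42, beside 0.06 over all measured genes, of which 1.72% were past 2-fold on the low side. The NF-kB list, like the other related lists, was picked with earlier results of these data in view. Its count and direction are thus no independent evidence. Ier3, an immediate-early gene linked to survival, gave 441 in the knockout and 2436 in the wild type, 5.53-fold lower. Nfkbiz, a nuclear regulator of NF-kB, was 2.56-fold lower with all 3 of its probe sets below -1 on the log2 scale, and Bcl3, another nuclear regulator, was 2.53-fold lower. Icam1, an adhesion molecule, was the fourth. The NF-kB subunit gene Rela had a log2 difference of -0.42 at 640 in the knockout and 858 in the wild type, and the inhibitor gene Nfkbia -0.41. Icam1, Rela and Nfkbia are named here because their values had been seen.

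Targets of p53 other than the members were mixed, with 18 of 18 measured, 11 higher and 7 lower and a median log2 difference of 0.08. Past 2-fold, 2 were lower and 0 higher, beside 1.72% lower and 1.15% higher over all measured genes. Btg2, an antiproliferative gene that is also an immediate-early gene, gave 250 in the knockout and 2197 in the wild type, 8.78-fold lower by the brighter of its 2 probe sets. Cdkn1a, the cell cycle inhibitor p21, gave 460 in the knockout and 945 in the wild type, 2.05-fold lower, and its other probe set was just short of 2-fold at -0.95. Plk2, a stress-induced kinase, was 1.94-fold lower. Sesn1 was the 1 gene at least 1.5-fold higher, at 520 in the knockout and 312 in the wild type. Of the members known as p53 targets, Bbc3 was higher, Apaf1 was lower by less than the spread between probe sets, and Pmaip1, Fas and Tnfrsf10b were under the floor.

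Genes of endoplasmic reticulum stress were lower in 11 of 12 measured, mostly by small amounts, with a median log2 difference of -0.38, while 42.2% of all measured genes were lower. Atf3 and Trib3 counted as measured through the wild-type array alone, so the floor fixed their direction in advance. With a floor at the 70th percentile, which leaves out both, 9 of 10 measured were lower. The list was chosen with earlier results of these data known, so its direction is no independent evidence. Under the 8 alternatives its median ran from -0.43 to -0.31, with 1 gene higher in each. Atf3, a stress-induced transcription factor, gave 22.8, under the floor, in the knockout and 85.6 in the wild type, at least 2.26-fold lower. An offset of 16 brought it inside 2-fold, and with a floor at the 70th percentile it was not measured. Xbp1, which drives the secretory machinery, was 1.67-fold lower with all 4 probe sets on that side, and Dnajb9, a chaperone, 1.47-fold lower. Ddit3, the gene of CHOP and the 1 gene that was higher, gave 196 in the knockout and 157 in the wild type. Among the inflammasome genes, Il1r1, the interleukin-1 receptor, gave 287 in the knockout and 703 in the wild type, 2.45-fold lower. Of 7 measured, 6 got a fold and Il1r1 was the 1 gene past 2-fold, beside 2.87% of all measured genes. The next were Card6, 1.33-fold higher, and Il1b, at least 1.26-fold lower from a wild-type signal of 47.6.

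Genes that act closest to the members showed no such differences. Over all measured genes, 11.3% were at least 1.5-fold apart in either direction, so lists this short would hold few such genes. Of 15 measured BCL2 partners and mitochondrial genes outside the members, 14 got a fold. Of these 14, 0 reached 1.5-fold, and the median log2 difference was -0.13. The farthest were Bag3, a co-chaperone, 1.46-fold lower, the oxidoreductase gene Aifm2 1.37-fold higher and the mitophagy receptor Bnip3 1.35-fold lower. Of 12 measured caspase substrates, inhibitors and other caspases, 0 reached 1.5-fold, with a median of -0.01. Birc5, the gene of survivin, which also acts in cell division, was farthest at 1.37-fold higher, followed by Casp14, at least 1.25-fold lower, and Pidd1, 1.15-fold higher. Of 13 measured death receptor ligands, adaptors and necroptosis genes, 12 got a fold. Likewise, 0 of these 12 were past 1.5-fold, with a median of -0.02. The necroptosis kinase gene Ripk3 was 1.40-fold lower, and the signalling genes Cyld and Traf6 1.36-fold and 1.30-fold higher. The ligand genes Fasl, Tnf and Tnfsf10 were under the floor on both arrays.

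**Figure D4:**
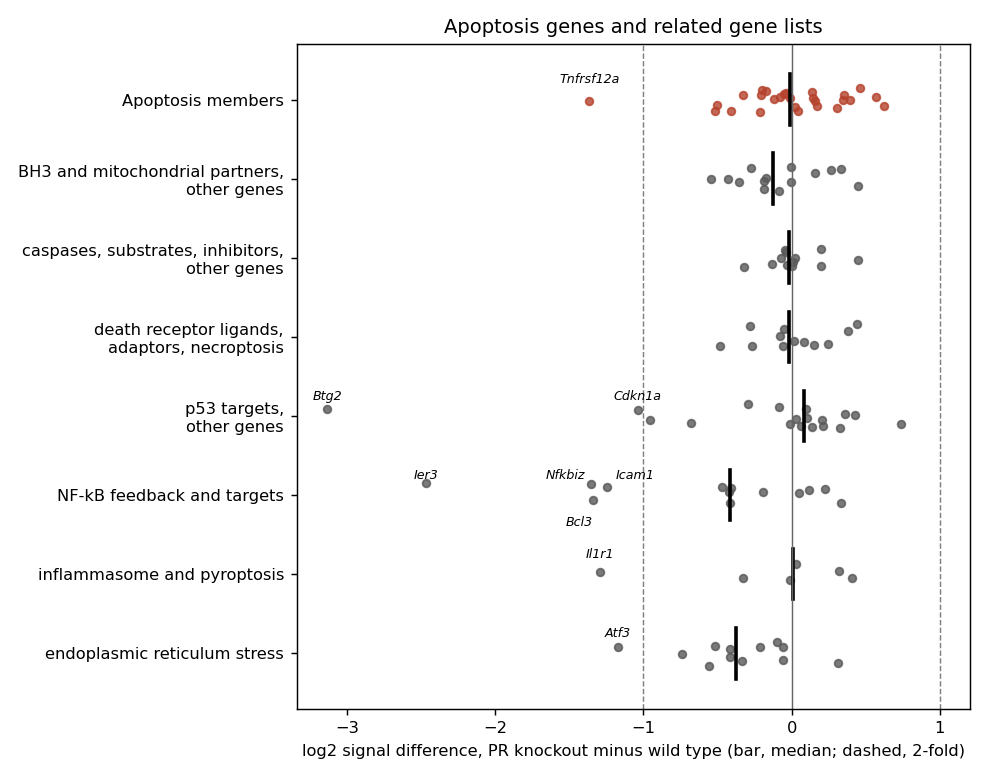
Log2 signal differences, PR knockout minus wild type, of the measured apoptosis genes (red) and of 7 related gene lists (grey), 1 point per gene, with the median as a bar, dashed lines at 2-fold and genes past 2-fold named. The differences past 2-fold lie on the low side, in Tnfrsf12a and in the p53, NF-kB, inflammasome and endoplasmic reticulum stress lists.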

How the data were processed

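RNA of 1 PR knockout and 1 wild-type ovary sample was measured on Affymetrix arrays. Per the labels' protocols, biotin-labelled RNA was made from 100 ng of total RNA with a kit that primes at the 3′ end. The authors deposited 1 linear intensity per probe set, computed with MAS5 and Affymetrix Expression Console version 1 per the submitters' processing notes. The 2%-trimmed mean was 150 on both arrays, so each had been scaled by 1 factor. MAS5 subtracts mismatch probes, which makes low signals noisy, and no detection calls were used here.

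Of 45101 probe sets, 64 controls were set aside; 34945 carried 1 symbol in the platform annotation, 932 several and 9160 none. Signals under the floor, the median of each array, were set to it, and a fold against such a signal, or against one no higher than the brightest Pgr signal, is given as "at least"; 3 list genes whose order turned on flooring got no fold. Signals were then taken to log2 (Python 3.11.15, pandas 2.3.3), and the calculation was tested on simulated data. With 1 array per genotype no test was possible, any batch coincides with genotype, and the number of arrays limits precision. Members, lists and markers were chosen with earlier results of these data known. All members are named, with up to 3 genes of each related list that had the largest differences; Icam1, Rela, Nfkbia, Sesn1, Ddit3 and the ligand genes were added after their values were seen. Alternatives were the floor, 3 rescalings, an offset and the choice of probe set. Promoter windows come from RefSeq, GRCm38.p6.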

Additional observations from a re-analysis of the deposited data

How the results depend on the processing

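Under the 8 alternatives, Tnfrsf12a was the 1 member at least 2-fold apart, always lower, with log2 differences from -1.42 to -1.27. The median log2 difference of the members ran from -0.07 to 0.02. Of 209 member values under an alternative, 208 moved by less than 0.25 on the log2 scale, the SD between probe sets of 1 gene, and the exception was Bad, at 0.47 with the mean over probe sets. The differences of Bak1, Apaf1 and Cflar, within that SD as reported, reached -0.33, -0.28 and -0.27 under at least 1 alternative, and Bak1 turned to 0.03 with the 70th-percentile floor. In the other direction, Bcl2l11 and Casp9, beyond it as reported, came inside it, Bcl2l11 at 0.10 with the mean over probe sets and 0.16 without the probe sets marked as matching several transcripts, and Casp9 at 0.24 on removal of the loess trend. Alternatives for the related gene lists were added after seeing the data. Counts at 1.5-fold were less firm. The 1 member at least 1.5-fold higher, Bbc3, left 0 members with the 70th-percentile floor, where it was not measured, and 0 with median centring, quantile normalization, removal of the loess trend or the offset of 16. Removal of the loess trend gave 2 members at least 1.5-fold lower, Tnfrsf12a and Bcl2l1. The shares of all measured genes past 2-fold ran from 2.00% with the offset to 4.21% with no floor. No paired analysis was possible because there is 1 array per genotype. Signal over background limits Bbc3, given as a bound, and the 7 members under the floor, given no direction.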
